A study of Mus musculus with 12 samples.

Results

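Sodium reabsorption in the distal nephron was examined at the transcript level through 10 genes, chosen by symbol from the deposited expression table of 22053 rows. They encode the thiazide-sensitive cotransporter (Slc12a3), a basolateral potassium channel (Kcnj10) and a kinase (Wnk1) of the distal convoluted tubule, the 3 subunits of the epithelial sodium channel ENaC (Scnn1a, Scnn1b and Scnn1g), the mineralocorticoid receptor (Nr3c2), the enzyme that protects it (Hsd11b2), and the kinase Sgk1 and ubiquitin ligase Nedd4l that act on the channel. All 10 were found, and all 10 were among the 13148 genes that reached 1 FPKM (a read count per kilobase of transcript relative to all mapped reads of the library) in 4 or more mice. RNA was sequenced from whole kidneys of 12 C57BL/6 mice, with 4 mice in each of 3 groups. Control mice ate the same diet without adenine and received PBS i.p. every week. CKD mice (chronic kidney disease) ate 0.2% adenine from 8 to 16 weeks of age, that is for 8 weeks, and received weekly PBS as well. CKD+Fe mice ate the adenine diet for the same 8 weeks and received iron dextran i.p. every week at 0.5 g/kg. Adenine in the diet injures tubules throughout the kidney, and no cell type was isolated. Mice are named here by group and by a number that only tells them apart.

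The last segments of the nephron set the final sodium content of urine. In the distal convoluted tubule sodium enters with chloride through the cotransporter encoded by Slc12a3, which WNK kinases activate through phosphorylation. In the connecting tubule and collecting duct it enters through ENaC, and aldosterone acting on the mineralocorticoid receptor raises channel activity, in part through SGK1, which keeps the ubiquitin ligase NEDD4L from removing the channel from the membrane. The enzyme encoded by Hsd11b2 inactivates glucocorticoids in these cells, so that the receptor stays responsive to aldosterone.

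Corticosteroid receptors bind DNA at an inverted repeat, and the window before 1 Sgk1 transcript start holds it, which is why this sequence is shown. In RefSeq promoter windows (GRCm38.p6, 250 bases before and 50 after a start), the 15-base motif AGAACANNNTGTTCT, which reads alike on both strands, occurred in 3 of 32851 windows (0.00913%). The shorter motif AGAACA, on either strand and including those inside the longer motif, occurred in 18.97% of windows. Windows were matched for 7 of the 10 genes, 12 windows in all, 6 of them for Sgk1. The window before the start of 1 Sgk1 transcript (chr10:21993640-21993889, plus strand) held the full motif in capitals at bases 21993701 to 21993715, which is 189 to 175 bases before the start. The windows before the 2 neighbouring ENaC genes on chromosome 7, Scnn1b (chr7:121864788-121865037, plus strand) and Scnn1g (chr7:121734229-121734478, plus strand), are shown beside it. In the deposited values Scnn1b passed the test below in CKD against control and Scnn1g did not, but their ratio overlapped between these groups. Neither window held either motif.
Sgk1: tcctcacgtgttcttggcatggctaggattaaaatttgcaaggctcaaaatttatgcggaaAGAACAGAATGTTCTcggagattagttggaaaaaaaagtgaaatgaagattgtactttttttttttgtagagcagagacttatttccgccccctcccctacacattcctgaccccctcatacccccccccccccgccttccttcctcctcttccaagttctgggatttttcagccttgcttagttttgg
Scnn1b: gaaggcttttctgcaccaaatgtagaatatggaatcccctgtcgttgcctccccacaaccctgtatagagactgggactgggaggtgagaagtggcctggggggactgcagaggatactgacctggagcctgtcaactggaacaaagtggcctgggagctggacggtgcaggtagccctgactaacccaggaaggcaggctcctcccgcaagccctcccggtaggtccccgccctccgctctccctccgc
Scnn1g: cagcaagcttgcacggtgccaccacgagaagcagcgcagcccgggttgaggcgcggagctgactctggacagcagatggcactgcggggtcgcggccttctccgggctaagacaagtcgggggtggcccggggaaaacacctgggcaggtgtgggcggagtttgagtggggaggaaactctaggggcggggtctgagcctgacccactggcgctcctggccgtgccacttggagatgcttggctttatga

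Among 12 other corticosteroid-axis genes, 8 had a window, and 0 of these held the full motif. A match describes letters in a window and is not a measured binding site.

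**Figure D1:**
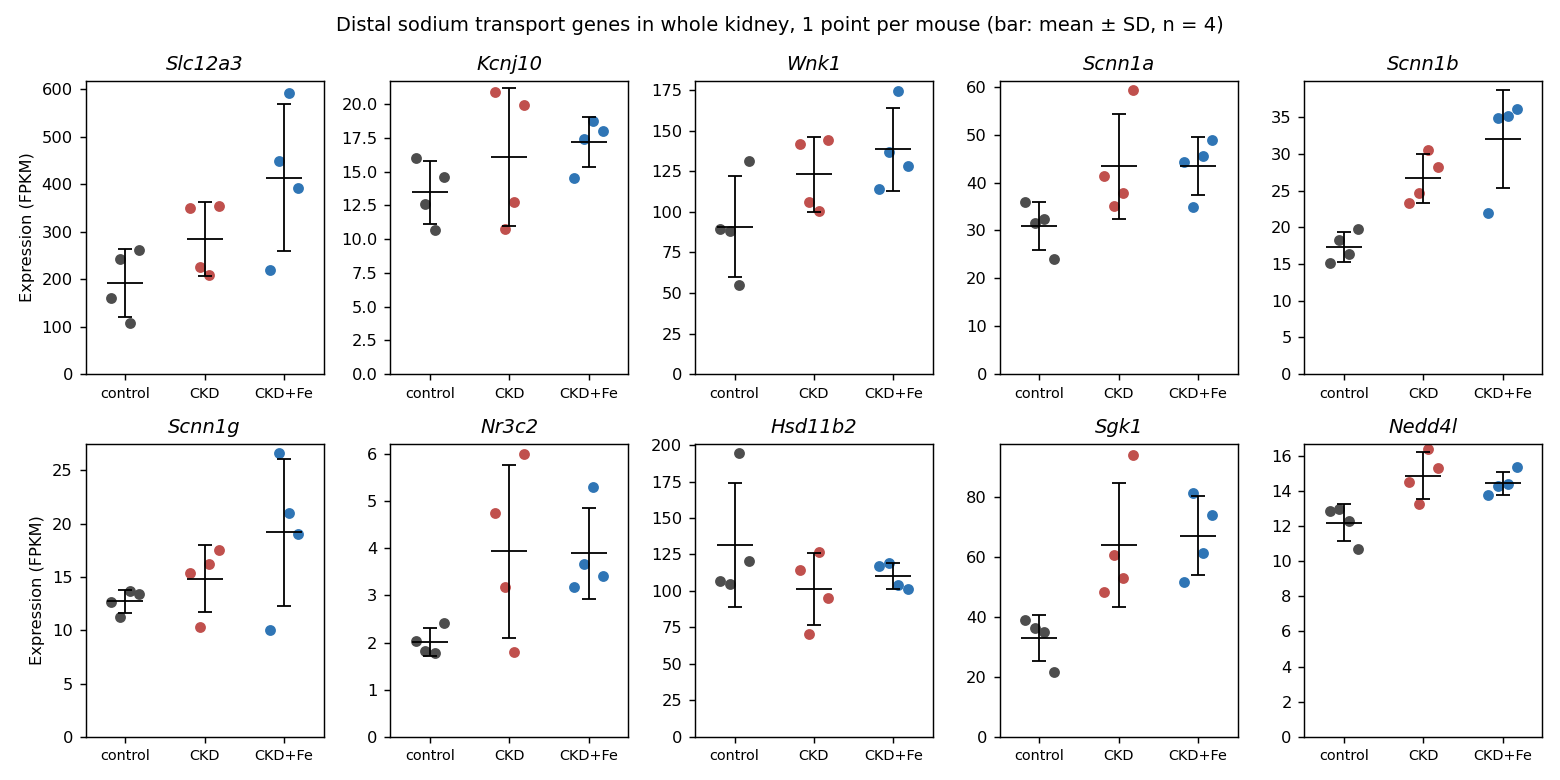
Expression in FPKM of the 10 genes (vertical axes, linear, from 0) in each of the 12 mice, by group; horizontal bars are means and error bars SDs of 4 mice. Scnn1b, Sgk1 and Nedd4l of every CKD mouse lay above every control mouse in the deposited values, as did 44.6% of all genes tested. None of the 10 genes separated the CKD+Fe from the CKD mice, where 1.35% of all genes lay above and 1.08% below in every mouse.

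FPKM are per length of transcript, so levels can be ordered between genes. In control kidneys the mean level in FPKM was highest for Slc12a3 (193), followed by Hsd11b2 (132), Wnk1 (90.9), Sgk1 (32.9), Scnn1a (30.9), Scnn1b (17.4), Kcnj10 (13.5), Scnn1g (12.7), Nedd4l (12.2) and Nr3c2 (2.02). Neighbours whose control mice overlapped were Slc12a3 and Hsd11b2, Hsd11b2 and Wnk1, Sgk1 and Scnn1a, and the run from Scnn1b through Nedd4l. The receptor was thus listed far below the enzyme that guards it and below each channel subunit, in every control mouse.

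Most genes, not only these 10, were higher in the FPKM of CKD mice. In CKD against control mice, 54.6% of all genes tested were called higher and 13.3% lower (limma on log2(FPKM + 1), Benjamini-Hochberg adjusted p under 0.05), and over all genes the median of the log2 fold changes was 0.50. Of the 10 members 4 were called higher, namely Sgk1, Scnn1b, Nr3c2 and Scnn1a, and 0 lower (limma without adjustment, p under 0.05, gave 5 higher with Nedd4l added and 0 lower, against 56.8% and 14.0% of all genes). Their count lay below the share of all genes called higher, and their median log2 fold change was 0.47. After median-of-ratios scaling, which moves the median over all genes to -0.03, 27.2% of genes were called higher and 31.0% lower, and of the members 0 were called higher and 2 lower (Hsd11b2 and Nedd4l). After quantile normalization 23.3% of genes were called higher and 25.6% lower, with 2 members higher (Sgk1 and Slc12a3) and 0 lower. Of the members, Sgk1 had a positive and Hsd11b2 a negative log2 fold change under all 3 scalings, and the other 8 changed sign between them. At an adjusted p under 0.5, the cutoff in the study's methods, 8 members were higher and 1 lower, against 69.1% and 20.4% of all genes. Leaving out control 2, CKD 1 or CKD 4 reduced the members called higher in the deposited values from 4 to 2. In this bulk tissue, fewer cells of a type and less RNA per cell cannot be told apart.

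**Figure D2:**
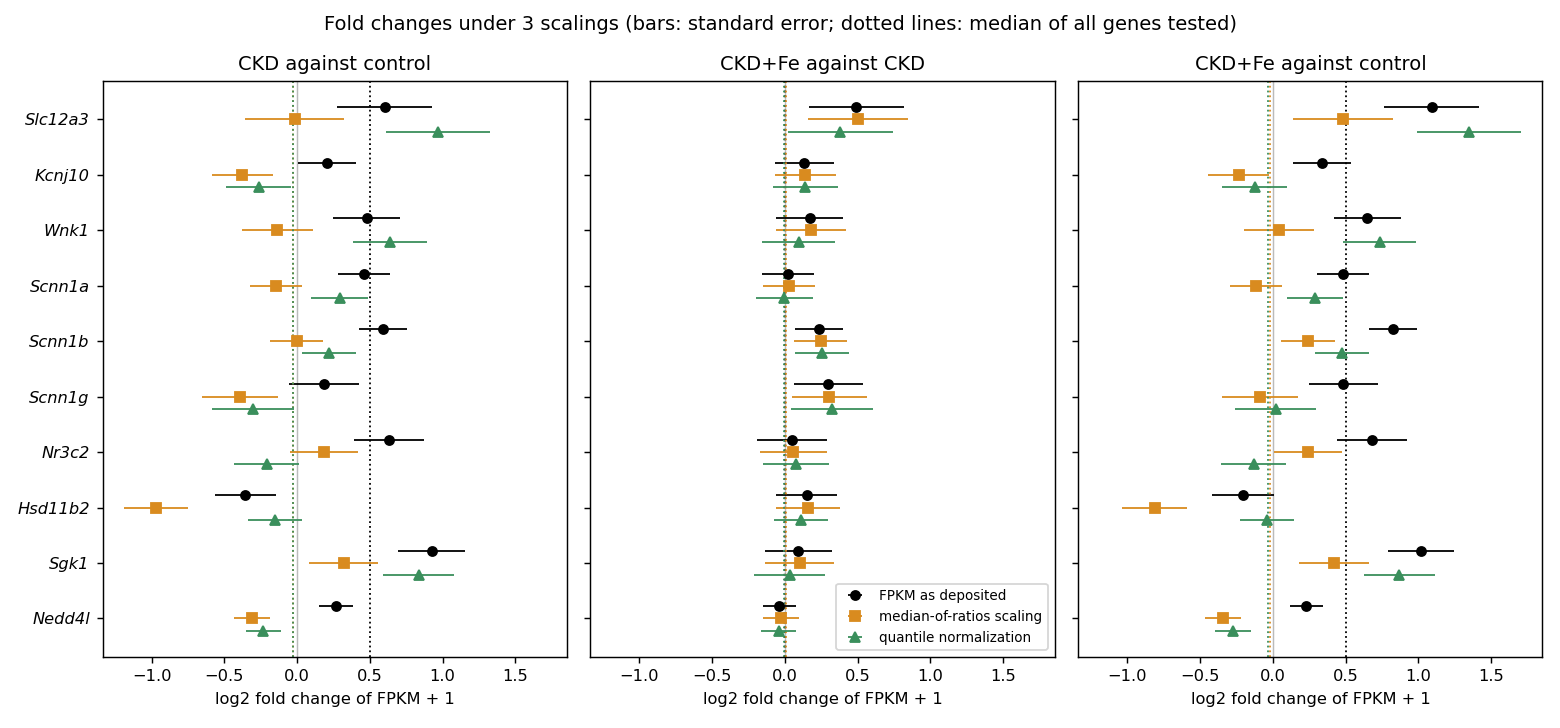
Log2 fold change of FPKM + 1 (horizontal axis) of the 10 genes in each comparison, with standard errors from limma, for FPKM as deposited, median-of-ratios scaling and quantile normalization; dotted lines mark the median of all genes tested under each. In CKD against control, only Sgk1 stayed above 0 and only Hsd11b2 below 0 under all 3 scalings, while in CKD+Fe against CKD no gene was called under any of them.

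Slc12a3 (ENSMUSG00000031766, chromosome 8, GRCm38, 94329201 to 94366214) encodes the sodium-chloride cotransporter that thiazide diuretics block. It was at 161, 242, 107 and 261 FPKM in control mice 1 to 4. In CKD mice 1 to 4 it was at 350, 225, 209 and 354 FPKM. In CKD+Fe mice 1 to 4 it was at 218, 449, 592 and 392 FPKM. The level was lowest in control 3, and 3 of the 4 CKD+Fe mice lay above every other mouse, while CKD+Fe 1 lay among the control and CKD mice. The means were 193 ± 71.6 FPKM in control mice, 284 ± 78.5 in CKD mice and 413 ± 155 in CKD+Fe mice (SD, n = 4 each). Slc12a3 did not pass the test in CKD against control (log2 fold change 0.60, SE 0.33, adjusted p = 0.117, limma), it passed after quantile normalization (0.97, adjusted p = 0.0388), and after median-of-ratios scaling its log2 fold change was -0.02. It rose in CKD+Fe against control mice (1.09, SE 0.33, adjusted p = 0.00971, limma), and it rose in each of the 12 fits that left out a mouse, yet after median-of-ratios scaling the value was 0.48 (adjusted p = 0.247). The groups overlapped, and the exact two-sided permutation test of its mean FPKM gave p = 0.0857 for CKD+Fe against control.

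Kcnj10 (ENSMUSG00000044708, chromosome 1, 172341210 to 172374085) encodes Kir4.1, the potassium channel of the basolateral membrane of the same cells. Its level was 10.7 to 16 FPKM in control mice, 10.8 to 20.9 in CKD mice and 14.5 to 18.8 in CKD+Fe mice. The 3 groups overlapped, and CKD mice fell apart into 20.9 and 19.9 FPKM in CKD 1 and 4 against 10.8 and 12.8 in CKD 2 and 3. The log2 fold change in CKD against control was 0.20 (SE 0.20, adjusted p = 0.378, limma) in the deposited values and negative after both other scalings (-0.38 and -0.26). A ratio of FPKM within a mouse is unchanged by median-of-ratios scaling, which divides each mouse by a single factor. Quantile normalization can change such a ratio. The ratio of Slc12a3 to Kcnj10 in the deposited values ran from 10.1 to 19.1 in control mice, 16.4 to 20.9 in CKD mice and 15.0 to 31.6 in CKD+Fe mice. The groups overlapped in each comparison (exact permutation p = 0.286, 0.229 and 0.114 for CKD against control, CKD+Fe against CKD and CKD+Fe against control). Relative to Slc12a1, the gene of the loop diuretic-sensitive cotransporter one segment upstream, Slc12a3 stood at 0.484 to 2.02 in control mice, 0.611 to 2.15 in CKD mice and 0.881 to 1.503 in CKD+Fe mice, again with overlap (exact permutation p from 0.657 to 1).

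Wnk1 (ENSMUSG00000045962, chromosome 6, 119923969 to 120038672, minus strand) encodes a chloride-sensing kinase at the head of the cascade that activates the cotransporter. The table gives 1 value for a gene with 26 listed transcripts, so the kidney-specific and full-length forms cannot be separated. Wnk1 was at 89.5, 88.5, 54.6 and 131 FPKM in control mice 1 to 4, at 142, 106, 100.4 and 144 in CKD mice and at 114, 137, 175 and 128 in CKD+Fe mice. As for Slc12a3, control 3 had the lowest value and CKD+Fe 3 the highest. Wnk1 did not pass the test in CKD against control mice (log2 fold change 0.48, SE 0.23, adjusted p = 0.0783, limma), but passed without control 4 (adjusted p = 0.0137). Against the same controls CKD+Fe mice had a rise of 0.65 on the log2 scale (SE 0.23, adjusted p = 0.0235, limma), which was 0.04 after median-of-ratios scaling (adjusted p = 0.891), and the call was lost without control 3 or CKD+Fe 3 (adjusted p = 0.0676 and 0.0749). These groups overlapped, and the exact permutation test of mean FPKM gave p = 0.0857.

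The 3 channel subunits did not give the same test result. Scnn1b and Scnn1a rose in CKD against control kidneys in the deposited values, and Scnn1g did not pass the test. Scnn1b (ENSMUSG00000030873, chromosome 7, 121865038 to 121918514) encodes the beta subunit. It was at 15.2, 18.4, 16.3 and 19.7 FPKM in control mice 1 to 4. In CKD mice 1 to 4 it was at 23.3, 24.7, 30.6 and 28.3 FPKM. In CKD+Fe mice 1 to 4 it was at 22.03, 35.0, 35.2 and 36.1 FPKM. Every CKD mouse and every CKD+Fe mouse lay above every control mouse, and CKD+Fe 1 lay below all CKD mice while the other 3 CKD+Fe mice lay above them. It rose by a log2 fold change of 0.59 in CKD (SE 0.16, adjusted p = 0.006, limma) and 0.83 in CKD+Fe against control (SE 0.16, adjusted p = 0.000685), both kept in all 12 fits that left out a mouse, but after median-of-ratios scaling the CKD value was -0.0025 (adjusted p = 0.991) and the CKD+Fe value 0.24 (adjusted p = 0.278).

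Scnn1a (ENSMUSG00000030340, chromosome 6, 125320659 to 125344943) encodes the alpha subunit, on which channel assembly depends. It was at 35.9, 31.6, 32.3 and 23.9 FPKM in control mice 1 to 4, at 41.3, 35.1, 37.8 and 59.4 in CKD mice and at 44.4, 34.8, 45.6 and 49.0 in CKD+Fe mice. Control 1 overlapped CKD 2 and CKD+Fe 2, and CKD 4 was the highest. The mean rose from 30.9 ± 5.02 FPKM in control to 43.4 ± 10.99 in CKD and 43.4 ± 6.08 in CKD+Fe mice (SD, n = 4 each). Its log2 fold change was 0.46 in CKD against control (SE 0.18, adjusted p = 0.0338, limma) and -0.14 after median-of-ratios scaling, and the call was lost without control 2, control 4, CKD 1 or CKD 4 (adjusted p up to 0.118). For CKD+Fe against control mice it was 0.48 (SE 0.18, adjusted p = 0.0288, limma) and -0.12 after median-of-ratios scaling, and the call was lost without control 4, CKD+Fe 1, CKD+Fe 3 or CKD+Fe 4 (adjusted p up to 0.0936). The exact permutation test of mean FPKM gave p = 0.0571 both for CKD and for CKD+Fe against control mice.

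Scnn1g (ENSMUSG00000000216, chromosome 7, 121734479 to 121768475), the gamma subunit gene beside Scnn1b, was at 12.6, 11.2, 13.7 and 13.4 FPKM in control mice 1 to 4. In CKD mice 1 to 4 it was at 15.4, 10.3, 16.2 and 17.5 FPKM, and in CKD+Fe mice at 9.997, 26.7, 21 and 19.1 FPKM. Of all 12 mice CKD+Fe 1 had the lowest value and the other 3 CKD+Fe mice had the highest. The log2 fold change in CKD against control was 0.19 (SE 0.24, adjusted p = 0.505, limma) in the deposited values, with -0.39 and -0.30 after median-of-ratios scaling and quantile normalization. The value for CKD+Fe was 0.48 (SE 0.24, adjusted p = 0.0899, limma), and without CKD+Fe 1 it passed the test (adjusted p = 0.0033).

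Ratios between subunits were compared within each mouse. Scnn1b was 1.19 to 1.64 times Scnn1g in control mice, 1.52 to 2.40 times in CKD mice and 1.31 to 2.20 times in CKD+Fe mice. The mean log2 ratio was 0.45 ± 0.23 in control and 0.87 ± 0.30 in CKD mice (SD, n = 4 each), a difference of 0.42 with overlapping groups (exact two-sided permutation p = 0.0857, 0.305 after Benjamini-Hochberg adjustment over 24 ratio tests). The ratios of Scnn1b and of Scnn1g to Scnn1a overlapped in each comparison as well (exact permutation p from 0.286 to 1), and Scnn1b exceeded Scnn1a in 1 mouse, CKD+Fe 2. Against Aqp2, the vasopressin-regulated water channel of the principal cells that also carry ENaC, Scnn1g stood at 0.0142 to 0.0871 in control and at 0.0570 to 0.239 in CKD mice. The mean log2 ratio of Scnn1g to Aqp2 was higher by 1.44 in CKD than in control mice with overlapping groups (exact permutation p = 0.0571, adjusted 0.274), and control 3, with Aqp2 at 964 FPKM against 153 to 285 in the other control mice, had the lowest ratio.

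**Figure D3:**
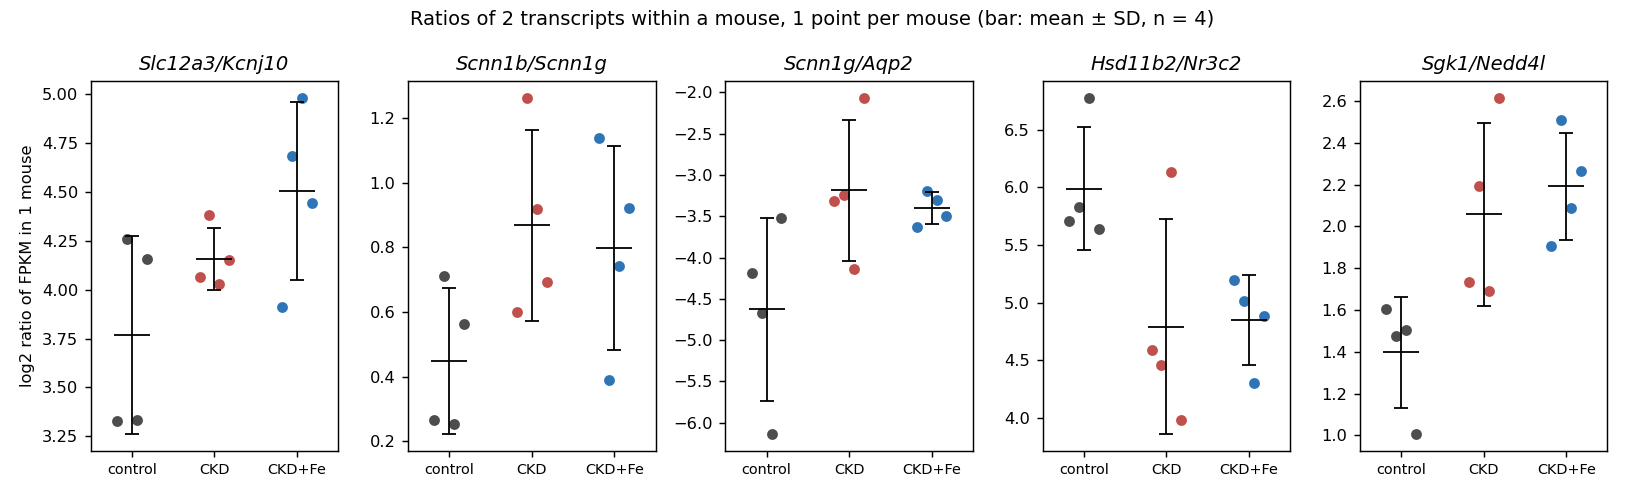
Log2 ratios of the FPKM of 2 genes in the same mouse (vertical axes) for 5 gene pairs, by group; horizontal bars are means and error bars SDs of 4 mice. Sgk1 relative to Nedd4l was above control in every CKD and CKD+Fe mouse, and Hsd11b2 relative to Nr3c2 was below control in every CKD+Fe mouse, while CKD 3 lay among the control mice.

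Nr3c2 (ENSMUSG00000031618, chromosome 8, 76899442 to 77245012) encodes the mineralocorticoid receptor. It was at 2.04, 1.83, 1.77 and 2.42 FPKM in control mice 1 to 4, at 4.76, 3.18, 1.80 and 6.01 in CKD mice and at 3.18, 3.67, 5.31 and 3.42 in CKD+Fe mice. Every CKD+Fe mouse lay above every control mouse, and CKD 3 alone of the CKD mice lay at the control level. The log2 fold change in CKD was 0.63 (SE 0.24, adjusted p = 0.0313, limma) in the deposited values, 0.18 after median-of-ratios scaling and -0.21 after quantile normalization. That call was lost without control 1, control 2, control 3, CKD 1 or CKD 4 (adjusted p up to 0.109), and the two-sided permutation test of the mean FPKM gave an exact p of 0.114. Without control 3, CKD 3 and CKD+Fe 1, the 3 mice that stood furthest from their groups over all genes, it was 0.84 (adjusted p = 0.00305, limma). Nr3c2 rose by 0.68 in CKD+Fe against control mice in the deposited values (SE 0.24, adjusted p = 0.0227, limma), with 0.24 after median-of-ratios scaling and -0.13 after quantile normalization, and the call was lost without control 2 or CKD+Fe 3 (adjusted p = 0.0523 and 0.0743).

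Hsd11b2 (ENSMUSG00000031891, chromosome 8, 105518755 to 105523988) encodes the dehydrogenase that inactivates glucocorticoids in aldosterone target cells. Of the members it alone was lower on average in CKD kidneys in the deposited values, against the upward shift of most genes in those values. It was at 106 (control 1), 105 (control 2), 195 (control 3) and 121 FPKM (control 4). In CKD mice 1 to 4 it was at 114, 70.2, 127 and 95.1 FPKM, and in CKD+Fe mice at 117, 119, 104 and 101 FPKM. Control 3 was far above all other mice, CKD 2 was the lowest, and the groups overlapped. The log2 fold change in CKD against control was -0.36 (SE 0.21, adjusted p = 0.148, limma) in the deposited values, which is 0.86 below the median of all genes, -0.97 after median-of-ratios scaling (SE 0.22, adjusted p = 0.00198) and -0.15 after quantile normalization (adjusted p = 0.517). The values for CKD+Fe against control mice were -0.21 (adjusted p = 0.401, limma), -0.81 (adjusted p = 0.00697) and -0.04 (adjusted p = 0.876). In control 3 the summed level over 10 principal cell genes was 1907 FPKM, against 460 to 613 in the other control mice. Most of that sum came from Aqp2 (964 FPKM) and Fxyd4 (622.5 FPKM). The channel subunit genes Scnn1a and Scnn1b of control 3 lay within the range of the other control mice. The part of principal cell content in the Hsd11b2 result was not tested.

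The ratio of Hsd11b2 to Nr3c2 within a mouse was 52.3, 57.0, 110 and 49.9 in control mice 1 to 4. It was 24.0, 22.1, 70.3 and 15.8 in CKD mice and 36.7, 32.4, 19.7 and 29.6 in CKD+Fe mice. Every CKD+Fe mouse lay below every control mouse, and so did 3 of the 4 CKD mice, while CKD 3 lay above 3 of the control mice. The mean log2 ratio differed by -1.14 in CKD+Fe against control mice (exact permutation p = 0.0286, the smallest that 4 against 4 allow, 0.229 after Benjamini-Hochberg adjustment over 24 tests) and by -1.20 in CKD against control mice (exact p = 0.114, adjusted 0.305).

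Sgk1 (ENSMUSG00000019970, chromosome 10, 21882184 to 21999903) encodes the serum- and glucocorticoid-regulated kinase, a transcript that both corticosteroid receptors induce, and it had the highest log2 fold change of the members in CKD against control. The table gives 1 value for a gene with 13 listed transcripts. Sgk1 was at 39.0, 36.1, 34.8 and 21.5 FPKM in control mice 1 to 4, at 48.2, 60.7, 53.0 and 94.0 in CKD mice and at 51.5, 81.1, 61.2 and 73.9 in CKD+Fe mice. Every CKD and CKD+Fe mouse lay above every control mouse. Sgk1 rose by a log2 fold change of 0.93 in CKD (SE 0.23, adjusted p = 0.00283, limma) and 1.02 in CKD+Fe against control (SE 0.23, adjusted p = 0.00164), and both calls held in all 12 fits that left out a mouse. After quantile normalization the values were 0.84 and 0.87 (adjusted p = 0.0121 and 0.0117, limma), and after median-of-ratios scaling 0.32 and 0.42 (adjusted p = 0.267 and 0.151).

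Nedd4l (ENSMUSG00000024589, chromosome 18, 64887756 to 65217826) encodes the ubiquitin ligase that SGK1 phosphorylates. It had the narrowest spread of the members, with 10.7 to 13.0 FPKM in control mice, 13.3 to 16.4 in CKD mice and 13.8 to 15.4 in CKD+Fe mice. In the deposited values every CKD and CKD+Fe mouse lay above every control mouse, by less than the shift of most genes. The log2 fold change in CKD against control was 0.27 (SE 0.11, adjusted p = 0.0521, limma), but -0.31 after median-of-ratios scaling (adjusted p = 0.045) and -0.23 after quantile normalization (adjusted p = 0.134). Between CKD+Fe and control mice it was 0.23 (adjusted p = 0.0928, limma), -0.34 (adjusted p = 0.032) and -0.27 (adjusted p = 0.0848). The ratio of Sgk1 to Nedd4l in a mouse, unchanged by median-of-ratios scaling, was 2.01 to 3.04 in control mice, 3.23 to 6.13 in CKD mice and 3.74 to 5.69 in CKD+Fe mice. The log2 ratio was higher by 0.66 in CKD and by 0.79 in CKD+Fe than in control mice, with no overlap in either (exact permutation p = 0.0286 each, adjusted 0.229).

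Iron dextran in CKD was tested by CKD+Fe against CKD mice. Of all genes 0.00761% (1 gene) were called higher and 0% lower, and 0 of the 10 members were called either way (limma, adjusted p from 0.944 to 0.999), also at an adjusted p under 0.5, which 0.700% of genes passed higher and 0.548% lower. Without adjustment, 0 members reached p under 0.05 in limma, against 3.28% of all genes higher and 2.73% lower. With array weights, which give mice unlike their group less weight, Scnn1g and Scnn1b reached it (8.56% of all genes higher and 9.96% lower), and without CKD+Fe 1 these and Slc12a3 did (4.94% and 6.30%). In both settings these 3 members were higher at an adjusted p under 0.5, where 19.1% of all genes were higher and 22.3% lower with array weights, and 6.06% higher and 1052 of the 13148 genes lower without CKD+Fe 1. No member separated the 2 groups, and only 1.35% of all genes lay above and 1.08% below in every CKD+Fe mouse. The member with the highest log2 fold change was Slc12a3 (0.49, SE 0.33), with Scnn1g (0.30, SE 0.24) and Scnn1b (0.24, SE 0.16) after it, and Nedd4l was the 1 member below 0 (-0.04, SE 0.11). For Slc12a3, Scnn1b and Scnn1g the same 3 mice, CKD+Fe 2, 3 and 4, lay above every CKD mouse and CKD+Fe 1 lay below at least 3 of them. Of the CKD+Fe mice, CKD+Fe 1 had the lowest summed proximal tubule markers (519 against 812 to 1133 FPKM). It was also lowest for distal convoluted and connecting tubule markers (6189 against 8094 FPKM or more) and principal cell markers (387 against 660 to 668 FPKM). Its macrophage marker sum was the highest (3704 against 1614 to 2684 FPKM). The part of these cell contents in the 3 genes was not tested. Without control 3, CKD 3 and CKD+Fe 1, a choice made after these data were seen, 0.388% of genes were called higher and 0.251% lower, and 0 members were called, while Scnn1g, Scnn1b and Slc12a3 were higher at an unadjusted p under 0.05 (8.06% of genes higher and 11.8% lower) and these and Hsd11b2 at an adjusted p under 0.5 (17.8% and 27.7%). The log2 fold changes were then 0.63 for Slc12a3 (adjusted p = 0.178, limma), 0.61 for Scnn1g (adjusted p = 0.118) and 0.47 for Scnn1b (adjusted p = 0.084).

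The comparison of CKD+Fe with control mice called 54.4% of all genes higher and 11.0% lower, with a median log2 fold change of 0.50. Of the 10 members 6 were called higher, namely Slc12a3, Wnk1, Scnn1a, Scnn1b, Nr3c2 and Sgk1, and 0 lower (limma), with a median of 0.57. At an adjusted p under 0.5 these were 9 higher and 1 lower, against 70.2% and 18.2% of all genes. Every CKD+Fe mouse lay above every control mouse for 4 of the 10 (Scnn1b, Nr3c2, Sgk1 and Nedd4l), a separation that 50.3% of all genes showed, and 0 members had every CKD+Fe mouse below every control mouse, against 9.82% of genes. The same held for CKD against control mice in 3 of the 10 (Scnn1b, Sgk1 and Nedd4l), against 44.6% of all genes, and 0 members had every CKD mouse below every control mouse, against 10.4% of genes. After median-of-ratios scaling 0 members were called higher and 2 lower (Hsd11b2 and Nedd4l) in CKD+Fe against control mice, where 26.1% of genes were called higher and 29.3% lower. After quantile normalization 3 were called higher (Slc12a3, Wnk1 and Sgk1) and 0 lower, where 19.8% of genes were called higher and 22.6% lower. Leaving out CKD+Fe 3 reduced the members called higher in the deposited values to 3. This comparison and that of CKD against control share their control mice, so their values stand side by side only.

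Other genes of the WNK cascade were measured through a list of 11, of which 9 were tested. In CKD against control mice 3 were called higher and 1 lower (54.6% and 13.3% of all genes), with a median log2 fold change of 0.02 beside 0.50 over all genes, and after median-of-ratios scaling 0 were higher and 4 lower (27.2% and 31.0%). Stk39, which encodes the kinase SPAK that phosphorylates the cotransporter, rose from 15.1 to 28.8 FPKM (log2 fold change 0.89, SE 0.20, adjusted p = 0.00157, limma). The related kinase gene Oxsr1 rose by 0.70 (SE 0.14, adjusted p = 0.000597, limma), and Cab39, which encodes their scaffold MO25, by 0.36 (SE 0.14, adjusted p = 0.0366) in the deposited values with -0.25 after median-of-ratios scaling. Ppp1r1a, which encodes an inhibitor of protein phosphatase 1 in these cells, fell from 161 to 70.5 FPKM (log2 fold change -1.09, SE 0.27, adjusted p = 0.00311, limma), and its sign was the same under all 3 scalings. Ppp1r1a was higher in every CKD+Fe than in every CKD mouse, as were 1.35% of all genes. The split was narrow, with at most 82.29 FPKM in CKD and at least 82.49 FPKM in CKD+Fe mice. Ppp1r1a did not pass the test (0.66, adjusted p = 0.786, limma). Wnk4, named after its values were seen, encodes another WNK kinase and showed the same separation, with 63.5 to 101 FPKM in CKD and 104 to 138 FPKM in CKD+Fe mice (log2 fold change 0.49, SE 0.21, adjusted p = 0.786, limma).

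Of 11 genes of proteases and regulators of ENaC, all tested, 7 were called higher and 2 lower in CKD against control mice, beside 54.6% and 13.3% of all genes, with a median log2 fold change of 0.88. After median-of-ratios scaling 5 were higher and 3 lower, beside 27.2% and 31.0%. Tmprss4, which encodes a membrane protease able to cleave the channel, was at 0.128 to 0.353 FPKM in control mice and 2.05 to 3.19 FPKM in CKD mice. No control mouse reached the 1 FPKM of the filter, so Tmprss4 was tested only because adenine-fed mice did, and its difference from control is given as a description. The 7 genes called higher in the deposited values include Tmprss4. St14, the gene of the membrane protease matriptase, rose by 1.33 (SE 0.24, adjusted p = 0.000284, limma), and Nedd4, the gene of a ubiquitin ligase related to NEDD4L, rose from 56.4 to 165 FPKM (1.52, SE 0.20, adjusted p = 2.04e-05). The 2 genes called lower encode proteases that activate the channel. Prss8, the gene of prostasin, fell from 233 to 120 FPKM (log2 fold change -0.94, SE 0.15, adjusted p = 9.76e-05, limma), and Furin fell by 0.51 (SE 0.20, adjusted p = 0.0326), a call lost without control 1, control 2, control 4, CKD 1 or CKD 2 (adjusted p up to 0.115). Tmprss4 was lower in every CKD+Fe than in every CKD mouse, as were 1.08% of all genes, without passing the test (-0.53, adjusted p = 0.435, limma).

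Of 12 further genes of the corticosteroid axis, all tested, 4 were called higher and 3 lower in CKD against control mice, with a median log2 fold change of 0.48 in the deposited values, and 4 were higher and 5 lower after median-of-ratios scaling. The shares of all genes were 54.6% and 13.3% in the deposited values and 27.2% and 31.0% after that scaling. The genes called higher include Edn1, the gene of endothelin-1, at 0.565 to 1.86 FPKM in control and 11.7 to 31.7 FPKM in CKD mice, and Zbtb16, a transcription factor gene that glucocorticoids induce, at 0.202 to 0.402 and 3.78 to 11.8 FPKM. Of the control mice 1 reached 1 FPKM of Edn1 and 0 of Zbtb16, so both were tested only because adenine-fed mice reached it, and their differences are descriptions. The 4 genes called higher in the deposited values include both, so that count rests in part on the filter. The clock gene Per1 rose by 2.13 (SE 0.30, adjusted p = 4.33e-05, limma). Hsd11b1, whose enzyme regenerates active glucocorticoid, the reverse of the reaction of the Hsd11b2 product, fell from 205 to 57.6 FPKM (-1.82, SE 0.21, adjusted p = 7.88e-06, limma). Fkbp4, the gene of a receptor co-chaperone, fell by 0.64 and Ndrg2, an aldosterone-responsive gene, by 0.63 on the log2 scale (SE 0.17 and 0.16, adjusted p = 0.0048 and 0.00324, limma). These genes kept their signs under all 3 scalings.

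**Figure D4:**
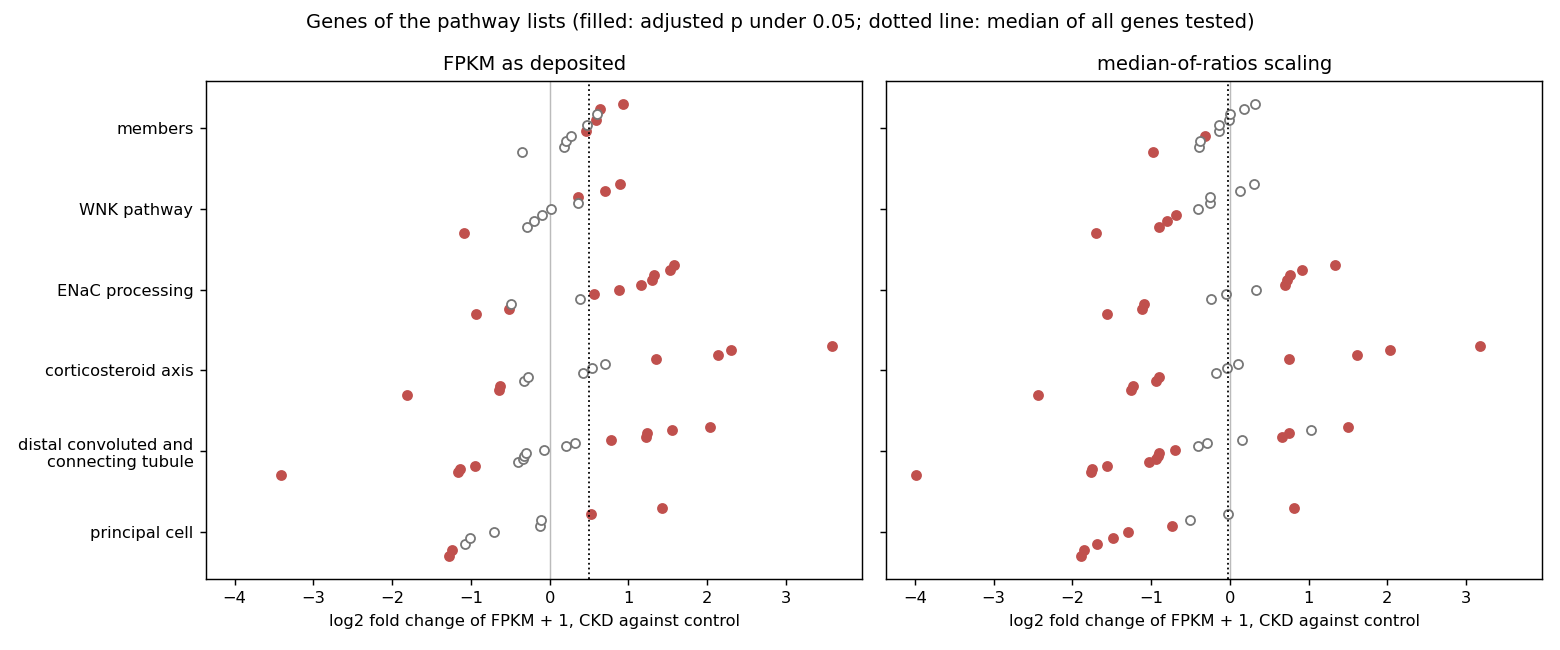
Log2 fold change of CKD against control on the FPKM + 1 scale (horizontal axis) for the members and 5 lists of related genes (rows), 1 point per gene, filled where the adjusted p was under 0.05, for FPKM as deposited (left) and median-of-ratios scaling (right). Of the 10 members, 4 were called higher and 0 lower on the left, and 0 higher and 2 lower on the right, and each of the 5 lists held filled points on both sides of 0 on the left.

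The cells that hold these genes were read through 2 marker lists. Of 16 genes of the distal convoluted and connecting tubule, all tested, 5 were called higher and 4 lower in CKD against control mice (54.6% and 13.3% of all genes), with a median log2 fold change of -0.19, and 3 higher and 9 lower after median-of-ratios scaling (27.2% and 31.0%). Pvalb, the gene of parvalbumin and a marker of the early distal convoluted tubule, fell from 54.1 to 68.3 FPKM in control to 3.16 to 9.86 FPKM in CKD mice (-3.42, SE 0.44, adjusted p = 2.02e-05, limma). Emx1, a distal tubule transcription factor gene, fell by 1.16 (SE 0.17, adjusted p = 6.71e-05, limma), and Fxyd2, the gene of the gamma subunit of the sodium pump, fell from 3984 to 1818 FPKM (-1.14, SE 0.25, adjusted p = 0.0012). The genes that rose include Trpv5, an apical calcium channel gene (2.04, SE 0.33, adjusted p = 0.000123, limma), Slc8a1, a sodium-calcium exchanger gene (1.55, SE 0.47, adjusted p = 0.0101), and Trpm6, a magnesium channel gene (1.23, SE 0.27, adjusted p = 0.00135).

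Of 10 principal cell genes 9 were tested, and 2 were called higher and 2 lower in CKD against control mice (54.6% and 13.3% of all genes), with a median log2 fold change of -0.71, and 1 higher and 6 lower after median-of-ratios scaling (27.2% and 31.0%). Aqp3, a basolateral water channel gene, fell from 99.9 to 42.1 FPKM (-1.28, SE 0.28, adjusted p = 0.00139, limma) and Aqp2 from 408 to 152 FPKM (-1.24, SE 0.50, adjusted p = 0.0415). The Aqp2 call was lost without control 2, control 3, CKD 1, CKD 2, CKD 4, CKD+Fe 3 or CKD+Fe 4 (adjusted p up to 0.131). Tfcp2l1, a transcription factor gene of the collecting duct, rose by 1.42 (SE 0.25, adjusted p = 0.000253, limma). Gata3 rose by 0.52 in the deposited values (SE 0.21, adjusted p = 0.0436, limma) but had -0.03 and -0.15 after median-of-ratios scaling and quantile normalization, and its call was lost in 10 of the 12 fits that left out a mouse. In CKD+Fe against CKD mice 0 genes of these 5 lists were called in the deposited values. Without the 3 mice that stood apart, Pvalb (log2 fold change 1.84, adjusted p = 0.0108, limma) and Aqp3 (1.33, adjusted p = 0.0409) were called higher. With array weights, where 0.601% of all genes were called higher and 0.426% lower, the same pair and Klk1, the gene of tissue kallikrein, were called higher and Tmprss4 lower (adjusted p from 0.0326 to 0.0475, limma).

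Markers of other cell types moved with the diet, and their part in the member results was not tested. Of 8 proximal tubule markers 7 were called lower in CKD against control mice (13.3% of all genes), with summed levels of 2484 to 3684 FPKM in control mice, 344 to 709 in CKD mice and 519 to 1133 in CKD+Fe mice. All 7 macrophage markers were called higher (54.6% of all genes), with sums of 119 to 245, 1732 to 3622 and 1614 to 3704 FPKM, and all 5 fibroblast markers, with sums of 63.7 to 91.6, 351 to 770 and 248 to 449 FPKM. Of the thick limb, intercalated cell, endothelial, podocyte and urothelial lists, 2 of 5, 1 of 6, 0 of 5, 0 of 3 and 0 of 6 tested genes were called higher and 0, 2, 1, 0 and 0 lower in the deposited values. After median-of-ratios scaling these lists had 0, 1, 0, 0 and 0 higher and 0, 5, 4, 0 and 0 lower (27.2% and 31.0% of all genes). Under that scaling 7 proximal tubule markers were lower, and 7 macrophage and 4 fibroblast markers were higher. Cyp11b2, the gene of aldosterone synthase, was listed at 0 in all 12 mice, and no gene of the 4 on the adrenal list exceeded 0.582 FPKM.

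Over all genes, control 3, CKD 3 and CKD+Fe 1 had 595, 805 and 442 genes at least 2-fold from the mean of the rest of their group, against 41 to 225 in the other mice. Summed FPKM ran from 503438 to 707843 per mouse. Read totals are unknown, and no counting error is given.

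For 4 members the 3 genes with the most similar pattern were found by the root mean square difference of log2(FPKM + 1), each gene set to 0 at its control mean, over 12 mice. For Slc12a3 these were Nabp1 (0.286), Herc3 (0.297) and Ipcef1 (0.308). Scnn1g had the closest neighbour of the 4, with Kcne1 at 0.144, then Slc38a4 (0.237) and Atp4a (0.266). For Hsd11b2 they were Smco4 (0.148), Fam101b (0.152) and Pfdn2 (0.168). Sgk1 was closest to Sik1 (0.243), Sptlc2 (0.255) and Vstm5 (0.263), and Sik1, the gene of a salt-inducible kinase, averaged 13.0, 24.0 and 28.6 FPKM in the control, CKD and CKD+Fe groups. The measure describes these mice, and genes whose level hardly varies lie close to each other by construction.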

How the data were processed

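Whole kidneys of 12 mice were sequenced as stranded mRNA libraries with single-end reads of 50 cycles on a HiSeq4000. The submitters' processing notes name STAR 2.5.2, Cufflinks 2.1.1, bcl2fastq 2.19 and GRCm38, and the study's methods name STAR and DESeq2. The authors deposited FPKM, 1 value per gene and mouse, already scaled to the mapped reads of each mouse, so an expression change of many abundant genes moves all other values. Which program made the FPKM and with which annotation is not given in the sources used here. A status column marked 30 values in 17 genes as failed, and these were treated as missing. None was in a member. Positions are those of the table with 1 added to the start. For 77.1% of rows they then equal GENCODE M21 on GRCm38, also for 9 of the 10 members (Nedd4l differs).

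The groups are those of the labels, which give separate mice and no batch. Values were analysed as log2(FPKM + 1), so fold changes of low genes are understated, by lmFit, contrasts.fit and eBayes (variance trend on) of limma 3.58.1 under R 4.3.3. A single fit of all 12 mice covered the 13148 genes that reached 1 FPKM in 4 or more mice. Two-sided p values had Benjamini-Hochberg adjustment across these genes, with a threshold of 0.05. FPKM are not counts, so no count test was run. Mean FPKM and log2 ratios within a mouse were compared by exact two-sided permutation over the 70 arrangements of 4 mice against 4, with the ratios adjusted over 24 tests. The fit and the permutation test were tested on simulated data. The alternatives were a pseudocount of 0.1, no filter, a mean of at least 5 FPKM, median-of-ratios scaling, quantile normalization, only the 2 groups compared, array weights, no variance trend, an adjusted p under 0.5 as in the study's methods, each mouse left out in turn, and, added after seeing the data, the 3 mice that stood apart left out.

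The members and lists were chosen with earlier results of these data known. Named were all members, of each pathway list up to 3 genes per direction with the largest change past the threshold in CKD against control, the genes in the ratios, and the 3 genes nearest in pattern to 4 members. Wnk4 was added after its values were seen. Promoter sequences are from RefSeq on GRCm38.p6.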

Additional observations from a re-analysis of the deposited data

Results flagged for a closer look

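Among 54 sets of 4 mice tested for 1 value far from the other 3, 2 were found. Chance alone gives about 1 in 20 sets, and 2 of 54 is not more than that, so the 2 are descriptions. Scnn1b was at 22.03 FPKM in CKD+Fe 1 and at 35.0 to 36.1 FPKM in the other CKD+Fe mice, a gap of 0.916 of the whole range. The log2 ratio of Hsd11b2 to Nr3c2 was 6.78 in control 3 and 5.64 to 5.83 in the other control mice, a gap of 0.830 of the range. CKD+Fe 1 and control 3 are also among the 3 mice furthest from their groups over all genes, and the part of that distance in these values was not tested.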

How the results depend on the processing

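No paired analysis was possible because the labels give the groups no shared replicate numbers. FPKM are relative to the total of each mouse, and the scaling was the choice that most often moved a member across 0 or across the threshold. Depth in reads is unknown. Of 132 counts of called members under an alternative, 119 stayed within 1.5 times the value reported, where a 0 that stayed 0 is included. That was so for every count in CKD+Fe against CKD and for most counts of members called lower. The 119 therefore do not measure how stable the calls were. In CKD against control, members called higher numbered 4 as reported, 0 after median-of-ratios scaling, 2 after quantile normalization, 8 at an adjusted p under 0.5 and 2 to 5 with a mouse left out, and members called lower 0 as reported, 2 after median-of-ratios scaling and 1 at an adjusted p under 0.5 (0 with any mouse left out). In CKD+Fe against control, members called higher numbered 6 as reported, 0 after median-of-ratios scaling, 3 after quantile normalization and 3 to 6 with a mouse left out, and members called lower 2 after median-of-ratios scaling and 1 at an adjusted p under 0.5. In CKD+Fe against CKD the count at an adjusted p under 0.05 was 0 in every alternative. At an adjusted p under 0.5 it was 3 higher (Scnn1g, Scnn1b and Slc12a3) with array weights or without CKD+Fe 1, 4 higher (with Hsd11b2) without the 3 mice that stood apart, and 0 in the other alternatives. Of all genes 19.1%, 6.06% and 17.8% were higher in these 3 settings.

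Log2 fold changes with the opposite sign to the reported value were as follows, and where the cause is not the scaling or the mice left out, it was not tested. In CKD against control after median-of-ratios scaling they were -0.0167 for Slc12a3, -0.14 for Scnn1a, -0.0025 for Scnn1b, -0.39 for Scnn1g, -0.31 for Nedd4l, -0.38 for Kcnj10, -0.14 for Wnk1, -0.25 for Cab39 and -0.0284 for Gata3. After quantile normalization they were -0.30 for Scnn1g, -0.21 for Nr3c2, -0.23 for Nedd4l, -0.26 for Kcnj10 and -0.15 for Gata3. Between CKD+Fe and control mice they were -0.12 for Scnn1a, -0.0876 for Scnn1g, -0.34 for Nedd4l and -0.24 for Kcnj10 after median-of-ratios scaling, and -0.13 for Nr3c2, -0.27 for Nedd4l and -0.13 for Kcnj10 after quantile normalization. Where the reported values lie near 0, in CKD+Fe against CKD, Scnn1a gave -0.0048 after quantile normalization, -0.0293 with array weights and -0.0492 without the 3 mice that stood apart, Nr3c2 gave -0.11 and -0.13 in the last 2 of these settings, and Nedd4l gave 0.0004 and 0.0287. With a mouse left out, the range in CKD+Fe against CKD was -0.0696 to 0.18 for Scnn1a, -0.19 to 0.25 for Nr3c2, -0.015 to 0.27 for Hsd11b2, -0.0252 to 0.29 for Sgk1, -0.0888 to 0.0073 for Nedd4l and -0.0295 to 0.27 for Kcnj10.

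Differences of mean FPKM that changed sign were, in CKD against control after median-of-ratios scaling, -11.5 for Slc12a3, -3.55 for Scnn1a, -3.98 for Scnn1g, -3.29 for Nedd4l, -4.01 for Kcnj10 and -14.9 for Wnk1, and after quantile normalization -2.88 for Scnn1g, -0.431 for Nr3c2, -2.37 for Nedd4l and -2.45 for Kcnj10. Between CKD+Fe and control mice they were -3.44 for Scnn1a, -3.63 for Nedd4l, -2.95 for Kcnj10 and -0.570 for Wnk1 after median-of-ratios scaling, and -0.351 for Nr3c2, -2.85 for Nedd4l and -1.50 for Kcnj10 after quantile normalization. For CKD+Fe against CKD the values were 0.0107 for Nr3c2 after median-of-ratios scaling, and -1.35 for Scnn1a, 0.0801 for Nr3c2 and -0.629 for Sgk1 after quantile normalization. With a mouse left out they ran in CKD+Fe against CKD from -2.73 to 5.38 for Scnn1a, -0.756 to 0.647 for Nr3c2, -1.66 to 17.2 for Hsd11b2, -2.28 to 13.0 for Sgk1, -0.987 to 0.0644 for Nedd4l and -0.688 to 2.70 for Kcnj10. Of the log2 ratios, the difference ran with a mouse left out from -0.18 to 0.0662 for Scnn1b to Scnn1g, -0.53 to 0.16 for Scnn1g to Aqp2 and -0.21 to 0.51 for Hsd11b2 to Nr3c2 in CKD+Fe against CKD, from -0.27 to 0.32 for Scnn1g to Scnn1a and -0.16 to 0.53 for Slc12a3 to Slc12a1 in CKD+Fe against control, and from -0.44 to 0.28 for Slc12a3 to Slc12a1 in CKD against control.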
